A study of Homo sapiens with 6 samples.

Results

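The 83 genes described here are the clustered histone genes, which supply the core and linker histones that package newly replicated DNA. They were chosen by symbol alone, as the genes named H1-1 to H1-6 or with a name that starts with H2AC, H2BC, H3C or H4C, out of 60656 genes in the count table. They comprised 6 genes of the linker histone H1, 22 of H2A, 24 of H2B, 15 of H3 and 16 of H4. The clustered H2A genes H2AC18 and H2AC19, whose identifiers in the table matched no symbol, are not among them, so that the H2A counts and sums lack them. The GENCODE annotation holds 68 of them as protein-coding and 15 as pseudogenes or other non-coding copies. RNA was measured in parental ZR-75-1 cells, an oestrogen receptor-positive human breast cancer line. Each of 3 libraries came from cells given DMSO, the solvent control. Each of 3 others came from cells given abemaciclib, an inhibitor of the kinases CDK4 and CDK6. An abemaciclib dose of 500 nM and a time of 4 days for both groups were assumed here, since the library titles hold neither. The study asked how the retinoblastoma protein, which these kinases restrain, acts on transcription. The RB1 knockout libraries of the same line were not analysed here.

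Clustered histone genes are transcribed mainly in S phase, when the cell needs histones in step with DNA synthesis. Their mRNAs are unusual in that they are short, lack introns and as a rule end not in a poly(A) tail but in a conserved stem-loop, which is bound by the stem-loop-binding protein SLBP and cut by a machinery that includes the U7 small nuclear ribonucleoprotein. Some of these genes also give longer, polyadenylated transcripts, which have been described in cells that have left the cell cycle. The library kit primes on runs of A with oligo(dT) and reads the 3′ end of RNA, so a count here stands for a polyadenylated or A-rich transcript and not for the whole histone mRNA pool.

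The letters of the stem-loop (GGC, any base, CTT, any base, T, any base, A, any 2 bases and GCC, read on the gene's strand) were present within 200 bases after the stop codon in 66 of the 68 protein-coding members, and in 71 of all 19919 protein-coding genes, or 0.356%. The members without them were H2BC12L and H2AC15. The stem-loop began 22 to 62 bases after the stop codon and occurred in 9 versions, of which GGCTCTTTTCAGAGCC was held by 38 members of the H1, H2A, H2B and H3 classes and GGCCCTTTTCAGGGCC by 10 members, all of H4. An example from each class is printed here from GRCh38, 5′ to 3′ on the gene's strand, with the 16 letters of the stem-loop in capitals. They show that genes which fell with abemaciclib (H1-5, H2AC21, H2BC7 and H3C3) and a gene that was not called (H4C8) all hold the stem-loop letters. The genes printed differ in the version of these letters. A transcript that runs past the stem-loop end is also annotated for H4C8, and for none of the others printed.
H1-5, chr6:27866792-27866817, minus strand: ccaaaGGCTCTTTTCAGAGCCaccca
H2AC21, chr1:149887468-149887493, minus strand: ccaaaGGCTCTTTTAAGAGCCaccaa
H2BC7, chr6:26199963-26199988, plus strand: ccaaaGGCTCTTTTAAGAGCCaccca
H3C3, chr6:26045844-26045869, plus strand: gaaaaGGCTCTTTTCAGAGCCactca
H4C8, chr6:26285126-26285151, minus strand: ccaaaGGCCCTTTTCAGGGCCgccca

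The libraries held 3317860 to 4013156 counts on genes, so that 0 counts allow a level as high as 0.748 to 0.904 CPM, depending on the library. CPM stands for counts relative to the library's total, scaled here by TMM. That limit takes 3 counts as compatible with none and covers counting error only. Of all genes, 10863 had enough counts for edgeR's quasi-likelihood test, and at an adjusted P under 0.05 a share of 13.3% was lower and 12.5% was higher with abemaciclib. All 6 markers of luminal breast cells were present, and 8 of 11 markers of immune, endothelial, fibroblast and basal cells were at 0 counts in all 6 libraries. COL1A1 was the one of these 11 with over 10 counts, and the summed fibroblast markers lay between 10.1 and 15.8 CPM. Replicates are described by the study as independent biological replicates, which the sample labels do not state.

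The clustered histone genes as a whole took fewer of the counts with abemaciclib. Their share of all counts was 0.404%, 0.396% and 0.488% in the DMSO libraries and 0.0729%, 0.0788% and 0.0647% in the abemaciclib libraries. The summed level fell from 4293 ± 533 CPM (SD, n = 3) to 728 ± 57.5 CPM (SD, n = 3), a ratio of 5.90-fold, and the libraries of the groups did not overlap. The sum rests on few genes, since H4C3 alone gave 71.9% of all member counts and H4C3 with H1-2 gave 87.2%. Without H4C3 the sum went from 1109 ± 191 CPM to 292 ± 28.7 CPM, a ratio of 3.80-fold. No test was made on these sums. In RNA from a whole culture, fewer cells in S phase and less histone RNA in each cell cannot be told apart.

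By class, 3 sums were lower with abemaciclib and 2 were not. The summed level of H1 genes went from 756 ± 127 to 106 ± 10.8 CPM, that of H2A genes from 232 ± 54.9 to 54.4 ± 9.81 CPM, and that of H4 genes from 3199 ± 344 to 457 ± 38.1 CPM (SD, n = 3 each), with no overlap between groups. For H2B genes the summed level was 94.6 ± 11.1 CPM with DMSO and 98.3 ± 12.8 CPM with abemaciclib, and for H3 genes it was 11.1 ± 1.53 and 12.1 ± 0.979 CPM. In both of these classes the libraries of the groups overlapped. The H4 sum was nearly all H4C3, at a mean of 3184 and 436 CPM, while the other 15 H4 genes together held 15.7 and 20.97 CPM. The H2B sum includes 2 pseudogenes of uncertain counts, H2BC19P (mean 23.7 against 34.2 CPM) and H2BC20P (8.80 against 12.6 CPM). The log2 ratio of the H2B sums was 0.06 and turned to −0.027 without DMSO replicate 1 and to −0.022 without abemaciclib replicate 2.

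**Figure D1:**
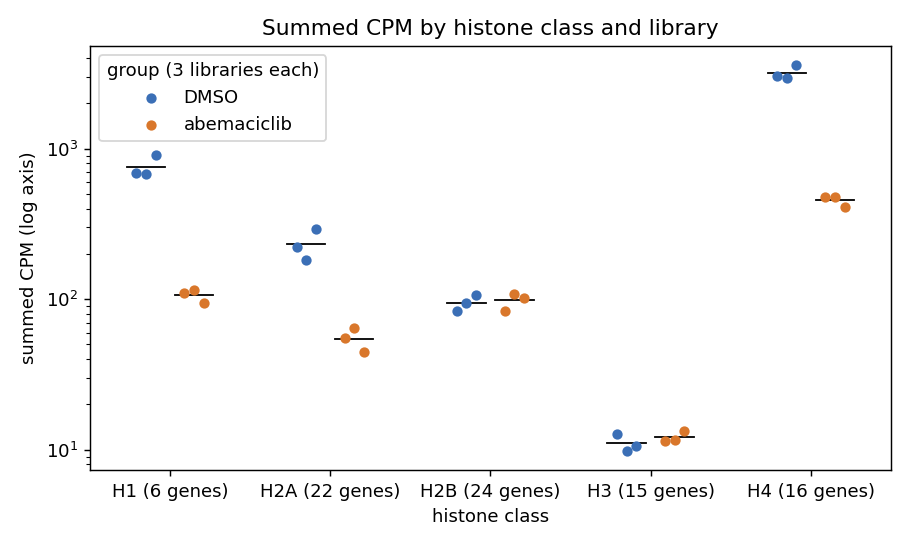
Summed CPM on a log axis for the 5 histone classes, with 1 point for each of 3 DMSO and 3 abemaciclib libraries and a bar at each group's mean. The H1, H2A and H4 sums lie lower in every abemaciclib library, whereas the H2B and H3 sums overlap between the groups.

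Of the 83 members, 32 had 0 counts in all 6 libraries, 28 had counts but too few for the test, and 23 were tested. The untested members reached at most 18 counts in a library, or 4.44 CPM, and together held 58 to 75 counts in a DMSO library and 31 to 75 in an abemaciclib library. The filter on low counts passed 14 of the tested members on the level of either group, 6 on that of DMSO alone and 3 on that of abemaciclib alone, so that a member could be tested because it was high in 1 group. At the edge of the filter, H3C3 (2.32 CPM over all libraries), H2AC11 (3.06 CPM) and H2AC8 (5.08 CPM) were the lowest members tested, and H2BC11 (2.60 CPM), H3C6 (2.39 CPM) and H4C9 (1.75 CPM) were the highest members not tested.

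Among the 23 tested members, 11 were lower and 1 was higher with abemaciclib (edgeR adjusted P under 0.05), beside 13.3% lower and 12.5% higher of all genes tested. At an unadjusted P under 0.05, 12 were lower and 4 higher, where 1986 and 1940 of all 10863 genes were. In 12 members all abemaciclib libraries lay below all DMSO libraries, and in 3 members above, where 20.1% and 19.1% of all genes tested did so. The median log2 fold change of the tested members was −0.72, with a range of −7.28 to 1.04, and that of all genes was −0.0018. This median moved to −0.18 with DESeq2, to −0.16 with at least 10 counts required in every library, and to between −0.83 and −0.34 when single libraries were left out (−0.43 without DMSO replicate 1, −0.34 without abemaciclib replicate 1 and −0.41 without abemaciclib replicate 3). Each of these medians covers the members that could be tested in that run, so that the sets of genes differ. Of the 11 members that fell, 6 passed the filter on the level of either group. The others, H1-5, H2AC21, H2BC4, H2BC7 and H3C3, passed only on that of DMSO, where they were high. Their P values come from members that the filter selected in that way.

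**Figure D2:**
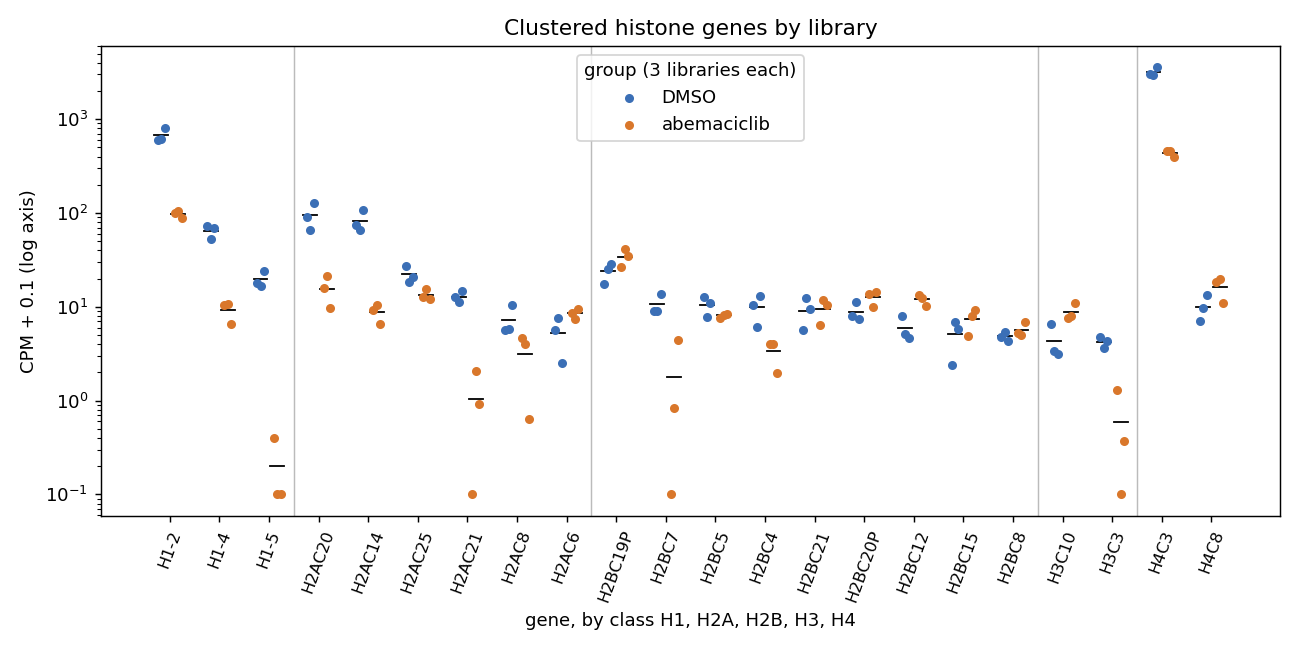
CPM plus 0.1 on a log axis for the 22 members with a call or a mean of at least 5 CPM, with 1 point for each of 3 DMSO and 3 abemaciclib libraries and a bar at each group's mean. The abundant members H4C3, H1-2, H1-4, H2AC20 and H2AC14 separate the groups, whereas H2BC5, H2BC8, H2BC15 and H2BC21 overlap.

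All 3 H1 genes that could be tested fell, where 13.3% of all genes tested were lower. Among them, H1-5 passed the filter on low counts only on the level of DMSO, where it was high. H1 binds the linker DNA between nucleosomes and compacts the fibre. H1-2 (ENSG00000187837, chr6:26055740-26056470, minus strand) stood at 598, 608 and 809 CPM in the DMSO libraries and at 99.5, 104 and 87.6 CPM in the abemaciclib libraries. It was the second most abundant member in every library, and its log2 fold change was −2.79 (standard error 0.12, edgeR adjusted P = 7.26e-17). H1-4 (chr6:26156329-26157115, plus strand) stood at 72.2, 53.2 and 69.4 CPM with DMSO and at 10.3, 10.6 and 6.49 CPM with abemaciclib. The log2 fold change of −2.83 was close to that of H1-2 (standard error 0.21, edgeR adjusted P = 1.45e-11).

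H1-5 (chr6:27866792-27867588, minus strand), a further somatic linker histone, was almost lost. It had 62, 56 and 79 counts in the DMSO libraries and 1, 0 and 0 counts in the abemaciclib libraries (17.98, 16.6 and 23.9 CPM against 0.303, 0 and 0 CPM, edgeR adjusted P = 2.68e-10). Over the groups this is 197 counts against 1, a level 215-fold lower, with a 95% exact interval of 38.2 to 8550-fold that covers counting error only. Its fitted log2 fold change of −7.28 depends on the prior count and is not used as a size. The P value comes from a gene that the filter passed on the level of DMSO alone. H1-1, H1-3 and the testis histone H1-6 had 0 counts in all 6 libraries.

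Of the 7 H2A genes tested, 4 fell (57.1%) and none rose (edgeR, 0 higher at an unadjusted P under 0.05 as well). Of all genes tested, 13.3% were lower and 12.5% were higher, and 7 genes are too few to set 0 higher apart from that share. H2AC21 and H2AC8 passed the filter on low counts only on the level of DMSO, and H2AC6 and H2AC11 only on that of abemaciclib. H2A forms dimers with H2B on the outer faces of the nucleosome. H2AC20 (chr1:149886918-149887411, plus strand) stood at 90.8, 66.5 and 129 CPM with DMSO and at 15.7, 21.2 and 9.73 CPM with abemaciclib. The groups were well apart, with a log2 fold change of −2.60 (standard error 0.22, edgeR adjusted P = 3.26e-10). H2AC14 (chr6:27814302-27814777, minus strand) stood at 74.8, 66.0 and 107 CPM with DMSO and at 9.08, 10.4 and 6.49 CPM with abemaciclib. It fell by 3.24 on the log2 scale (standard error 0.21, edgeR adjusted P = 1.17e-12), although 66.3% of its 50-base words also occur in H2AC13, so that the division of reads between these 2 genes is uncertain. H2AC13 itself averaged 0.202 CPM with DMSO and 0 with abemaciclib.

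H2AC21 (chr1:149887469-149887965, minus strand) stood at 12.5, 11.3 and 14.5 CPM with DMSO and at 0, 1.97 and 0.811 CPM with abemaciclib. The log2 fold change was −3.65 (standard error 0.54, edgeR adjusted P = 5.55e-06), and −4.79 without abemaciclib replicate 2. Its exons overlap BOLA1 on the opposite strand, and since the sources do not state whether reads were counted by strand, its counts are uncertain. H2AC25 (chr1:228434777-228457873, minus strand) moved least of the members that fell, from 27.0, 18.4 and 20.9 CPM to 12.7, 15.3 and 12.2 CPM. Its log2 fold change was −0.72 (standard error 0.24, edgeR adjusted P = 0.0269), and the call was lost with DESeq2 (adjusted P = 0.0817) and in edgeR without DMSO replicate 1 (adjusted P = 0.166), abemaciclib replicate 1 (adjusted P = 0.0667) or abemaciclib replicate 3 (adjusted P = 0.0653). H2AC8 stood at 5.51, 5.64 and 10.3 CPM against 4.54, 3.95 and 0.540 CPM, a log2 difference of −1.24 that did not pass (standard error 0.52, edgeR adjusted P = 0.0814). H2AC6 stood at 5.51, 7.43 and 2.42 CPM against 8.47, 7.40 and 9.46 CPM, with overlapping groups and a log2 difference of 0.71 (standard error 0.41, edgeR adjusted P = 0.217). H2AC11 stood at 1.74, 2.38 and 2.42 CPM against 4.54, 3.21 and 4.05 CPM, with a log2 difference of 0.84 (standard error 0.53, edgeR adjusted P = 0.266).

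Of the 9 H2B genes tested, all at low levels, 2 were lower (22.2%), 1 was higher (11.1%) and 6 were not called, shares near the 13.3% lower and 12.5% higher of all genes. The lower genes, H2BC7 and H2BC4, passed the filter on low counts only on the level of DMSO, and H2BC15, which was not called, only on that of abemaciclib. H2BC7 (chr6:26199516-26199988, plus strand) stood at 8.99, 8.91 and 13.6 CPM with DMSO and at 0, 0.740 and 4.32 CPM with abemaciclib. It fell by 2.59 on the log2 scale (standard error 0.59, edgeR adjusted P = 0.00134), with a wide spread among the abemaciclib libraries, and the log2 fold change was −4.58 without abemaciclib replicate 3. H2BC4 (chr6:26086317-26123926, minus strand) stood at 10.4, 5.94 and 13.0 CPM with DMSO and at 3.93, 3.95 and 1.89 CPM with abemaciclib. The log2 fold change was −1.58 (standard error 0.44, edgeR adjusted P = 0.00763), and the call was lost without DMSO replicate 3 (adjusted P = 0.0655). An unnamed gene (ENSG00000291336) overlaps its exons on the opposite strand, so that these counts are uncertain too.

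H2BC12 (chr6:27146361-27146855, minus strand) was the single member called higher. It stood at 7.83, 5.05 and 4.54 CPM with DMSO and at 13.3, 12.3 and 10.0 CPM with abemaciclib, a log2 fold change of 1.02 (standard error 0.35, edgeR adjusted P = 0.0282). The call was lost with DESeq2 (adjusted P = 0.0691) and in edgeR on leaving out DMSO replicate 2 (adjusted P = 0.0994) or replicate 3 (adjusted P = 0.0985), or abemaciclib replicate 1 (adjusted P = 0.0865) or replicate 2 (adjusted P = 0.0744). Of its 50-base words, 57.2% also occur in other H2B genes, so that its counts are uncertain. Its level was nevertheless higher in each abemaciclib library than in any DMSO library.

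Over the mean of all 6 libraries, the most abundant H2B members were a pair of transcribed pseudogenes, H2BC19P and H2BC20P, all of whose 50-base words occur in other genes. H2BC19P stood at 17.4, 25.3 and 28.5 CPM with DMSO and at 26.6, 41.0 and 35.1 CPM with abemaciclib, a log2 difference of 0.54 that did not pass (standard error 0.21, edgeR adjusted P = 0.0606), but did without DMSO replicate 3 (adjusted P = 0.0398) or abemaciclib replicate 1 (adjusted P = 0.0227). H2BC20P stood at 7.83, 11.3 and 7.27 CPM against 13.6, 9.87 and 14.3 CPM (edgeR adjusted P = 0.244). Both overlap an unnamed gene on the same strand (ENSG00000290791 and ENSG00000290792), so that their counts are uncertain, and neither was called.

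The H2B genes H2BC5, H2BC8, H2BC15 and H2BC21 overlapped between the groups. H2BC5 stood at 12.8, 7.72 and 10.9 CPM with DMSO and at 7.56, 8.14 and 8.38 CPM with abemaciclib (log2 difference −0.38, standard error 0.33, edgeR adjusted P = 0.44). H2BC21 stood at 5.51, 12.2 and 9.39 CPM against 6.35, 11.6 and 10.3 CPM (log2 difference 0.07, standard error 0.35, edgeR adjusted P = 0.915). The sign of this small difference turned without DMSO replicate 1 or abemaciclib replicate 2. H2BC15 stood at 2.32, 6.83 and 5.76 CPM against 4.84, 7.90 and 9.19 CPM (log2 difference 0.56, standard error 0.44, edgeR adjusted P = 0.383), and H2BC8 at 4.64, 5.35 and 4.24 CPM against 5.14, 4.93 and 6.76 CPM (log2 difference 0.24, standard error 0.43, edgeR adjusted P = 0.739).

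H3 genes were scarce, and 9 of the 15 had 0 counts in all libraries. H3, with H4, forms the tetramer at the core of the nucleosome. H3C3 (chr6:26045384-26045869, plus strand) had 16, 12 and 14 counts with DMSO and 4, 0 and 1 counts with abemaciclib (4.64, 3.57 and 4.24 CPM against 1.21, 0 and 0.270 CPM). Its log2 fold change was −3.08 (standard error 0.75, edgeR adjusted P = 0.00272), and at these few counts it was −4.67 without abemaciclib replicate 1 and −2.47 without abemaciclib replicate 2. H3C3 passed the filter only on the level of DMSO, where it was high. H3C10 (chr6:27810051-27811300, plus strand) went the other way, with 6.38, 3.27 and 3.03 CPM with DMSO and 7.56, 7.90 and 10.8 CPM with abemaciclib. All abemaciclib libraries were higher, and the log2 difference of 1.04 did not pass (standard error 0.41, edgeR adjusted P = 0.0637), except without DMSO replicate 1 (adjusted P = 0.0327) and with at least 10 counts required in every library (adjusted P = 0.0326).

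H4C3 (ENSG00000197061, chr6:26103933-26104337, plus strand), 1 of many genes that encode the same H4 protein, dominated the family. It stood at 3048, 2930 and 3573 CPM in the DMSO libraries and at 454, 456 and 398 CPM in the abemaciclib libraries. The groups were far apart, with a log2 fold change of −2.87 (standard error 0.10, edgeR adjusted P = 5.04e-19), a level 7.30-fold lower. By mean CPM it ranked 21 of 10863 tested genes with DMSO and 310 with abemaciclib. It gave 75.0%, 74.9% and 72.9% of the member counts in the DMSO libraries and 61.6%, 58.5% and 59.6% in the abemaciclib libraries.

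No other H4 gene came near it, and the other 15 together held 15.7 CPM with DMSO and 20.97 CPM with abemaciclib. H4C8 (chr6:26277609-26285638, minus strand) was the only other H4 gene tested, at 6.96, 9.51 and 13.3 CPM against 18.2, 19.5 and 10.8 CPM. Its log2 difference was 0.70 (standard error 0.30, edgeR adjusted P = 0.0877), and it passed without DMSO replicate 3 (adjusted P = 0.0438) or abemaciclib replicate 3 (adjusted P = 0.0174). An unnamed gene (ENSG00000289447) overlaps its exons on the opposite strand, so that its counts are uncertain.

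**Figure D3:**
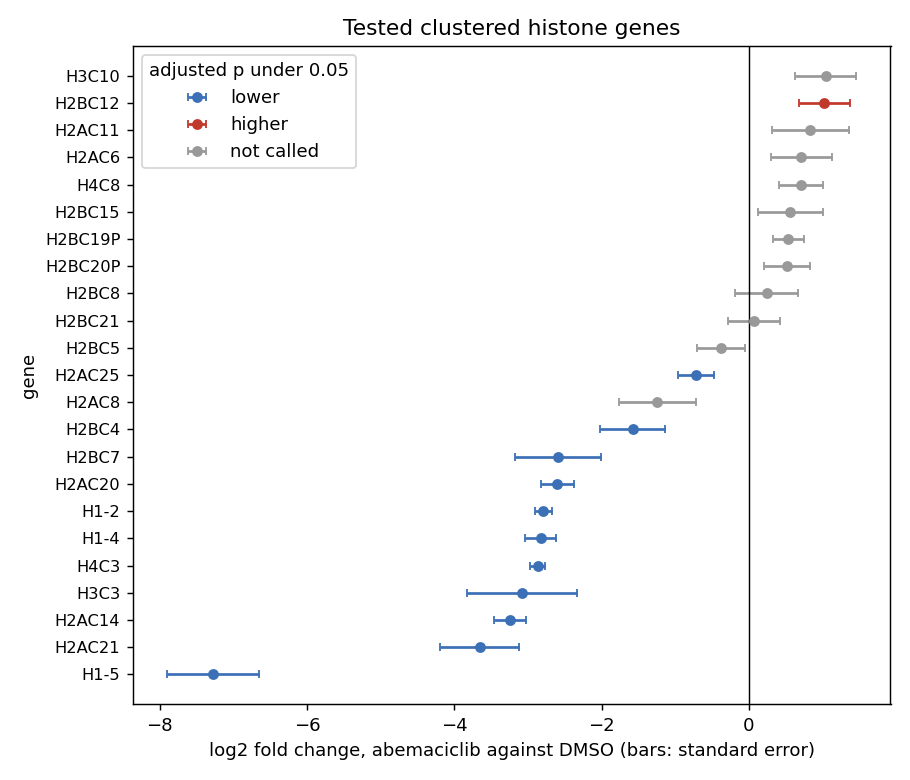
Log2 fold change of abemaciclib against DMSO for the 23 tested members, ordered by size, with bars for the standard error and colours for the call at an adjusted P under 0.05. From H2AC20 to H2AC21, 7 of the 11 members that fell lie between −3.65 and −2.60, and the members not called lie between −1.24 and 1.04.

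The members differed in how rich in A their transcripts are, which matters for a kit that primes with oligo(dT). H4C3 holds a stretch of 20 bases with 18 A, 31 bases after its stop codon and ahead of its stem-loop. A stretch with at least 18 A of 20 within 200 bases after the stop codon occurs in 110 of 19919 protein-coding genes (0.552%), and in no other member. Over the whole canonical transcript, the measure used from here on, the next highest number in any member was 13, and the other 15 H4 genes had 8 to 10. The A-richest stretches of H4C3, H2AC20 and H1-2 are printed here from GRCh38, 5′ to 3′ on the gene's strand with A in capitals, since these were the most abundant genes of the H4, H2A and H1 classes. That of H2AC20 ends with its stop codon and that of H1-2 lies in the coding sequence.
H4C3, chr6:26104291-26104310, plus strand: AAAAAAcAAAAAcAAAAAAA
H2AC20, chr1:149887345-149887364, plus strand: AcAAAgccAAAAgcAAAtAA
H1-2, chr6:26055958-26055977, minus strand: ctAAgAAAAcAccgAAgAAA

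By that measure, 13 members had a stretch with at least 12 A of 20. They include H4C3, H1-2, H1-4, H1-5, H2AC14 and H2AC20, which are 6 of the 11 members that fell, and none of the 12 tested members that did not fall. The cut of 12 A was not a planned setting. It lies just above the 8 to 11 A of the tested members that did not fall, so that their absence was fixed by the cut. The other members that fell, H2AC21, H2AC25, H2BC4, H2BC7 and H3C3, had 9 to 11 A, within that range. The medians were 12 A for the members that fell and 10 A for the tested members that did not. An A-rich stretch did not go with a high level throughout, since 4 of the 13, namely H1-1, H1-3, H1-6 and H2AC17, had 0 counts in all libraries. Whether the counted reads of H4C3 and the others came from priming inside the transcript or from a poly(A) tail was not tested, as counts per gene do not hold the read positions.

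**Figure D4:**
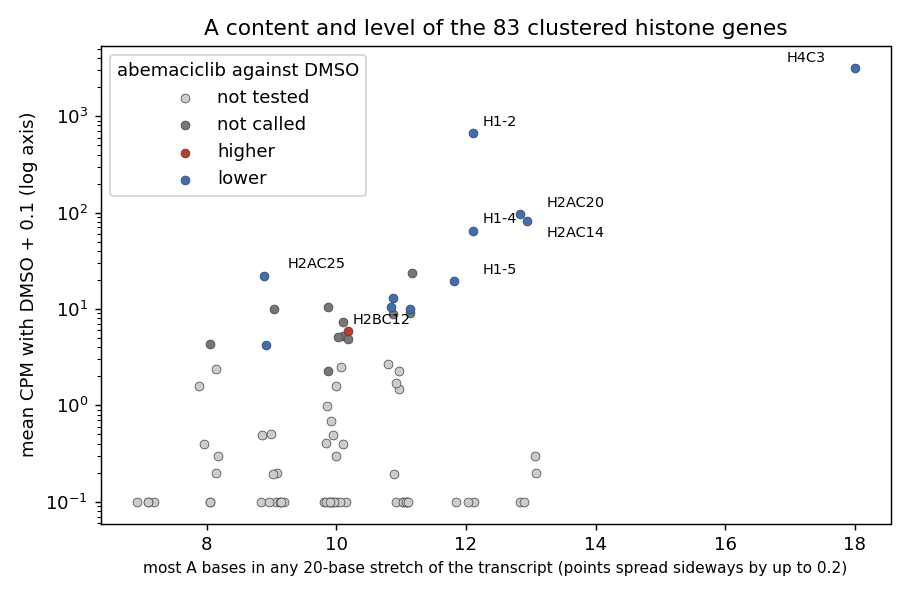
Mean CPM with DMSO plus 0.1 (log axis) against the largest number of A in any 20 bases of the transcript, with 1 point for each of the 83 members, coloured by its call. H4C3 stands alone at 18 A and 3184 CPM, and at 12 and 13 A the members range from 0 CPM to the 671.5 CPM of H1-2.

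A transcript that runs past the stem-loop end, or is itself over 1000 bases long, is annotated for 17 of the 83 members. They include 2 of the 11 that fell (H2AC25 and H2BC4) and 6 of the 12 tested members that did not (H2AC6, H2BC5, H2BC15, H2BC21, H3C10 and H4C8), a description of few genes with no test. H2AC25 and H2BC4 were also the members that fell least, with log2 fold changes of −0.72 and −1.58. The polyadenylation signal AATAAA occurred within 200 bases after the stop codon in 5 members, among them H1-2 and H2BC5, and in 18.7% of protein-coding genes. The others, H2AC17, H4C11 and H4C12, were not tested. In H4C3 the first AATAAA lay 233 bases after the stop codon, just past this window.

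Each of the 3 largest clusters held members that fell beside members that were not called or not tested. Of all genes tested, 13.3% were lower. The largest cluster, chr6:25726063-26322292, holds 42 members, of which 21 had 0 counts in all libraries, 11 were tested and 6 fell. Its summed level was 3988 CPM with DMSO and 592 CPM with abemaciclib, most of it from H4C3 and H1-2. The cluster at chr6:27807075-27893891 holds 18 members, of which 4 were tested and 2 fell (117 against 26.3 CPM). The small cluster at chr6:27132316-27147562 holds 5 members with 13.4 CPM against 20.5 CPM, and H2BC12 is the higher gene in it. On chromosome 1, the cluster at chr1:149811879-149887965 holds 11 members, of which 5 were tested and 2 fell (152 against 73.7 CPM).

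Many H2A and H2B genes lie head to head and share the DNA between their start sites. Of 17 head-to-head pairs of members with start sites within 1000 bases, all of an H2A with an H2B gene except H3C7 with H2BC9, 3 had both genes tested, and in none of these were both called. H2AC20 fell from a mean of 95.5 to 15.6 CPM while H2BC21, 235 bases away, averaged 9.03 and 9.41 CPM. H2BC4 fell from 9.80 to 3.26 CPM while H2AC6, 245 bases away, averaged 5.12 and 8.44 CPM. H2BC8 and H2AC8, 232 bases apart, were both not called. H2AC14, at 82.5 and 8.64 CPM, faces H2BC14, which was not tested and averaged 1.59 and 0.411 CPM. The differences between the 2 genes of a pair were not tested.

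The promoter sequences of RefSeq (GRCh38.p14, 250 bases before to 50 bases after the start site) held 62 of the members, and H4C3 was not among them. The octamer ATTTGCAT, the letters bound by the POU factor OCT1 (POU2F1) in H2B promoters, was found on either strand in 26 of 62, against 1.77% of all 35116 promoters. It was present in 14 of 18 H2B and 11 of 14 H2A members, in 1 of 11 H3 members and in none of the 6 H1 and 13 H4 members. The promoter windows of head-to-head genes overlap, so that 1 octamer can be counted for both genes of a pair. The octamer did not separate the members by their call, since it was present in 5 of 10 members that fell and 6 of 10 tested members that did not. The windows of 2 H2B genes that fell and of the 1 that rose are printed here, 5′ to 3′ on the gene's strand with the octamer in capitals, to show that all 3 carry it.
H2BC4, chr6:26124031-26124060, minus strand: tttcatacctcATTTGCATagctctgccca
H2BC7, chr6:26199394-26199423, plus strand: agaatcacctaATTTGCATaccacagggca
H2BC12, chr6:27146886-27146915, minus strand: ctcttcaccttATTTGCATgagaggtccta

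The CCAAT letters were present in 52 of 62 member promoters (34.6% of all promoters) and TATAAA in 40 of 62 (11.5% of all promoters). Letters of E2F sites (TTTCGCGC, TTTGGCGC or TTTCCCGC, either strand) were present in 13 of 62 members and in 2.74% of all promoters. They were present in 1 of 10 matched members that fell, H2AC14, in 2 of 10 tested members that did not, and in 5 of 19 with 0 counts in all libraries. They did not separate the members by their call. E2F factors are the partners through which the retinoblastoma protein acts on cell cycle genes. A match of letters is no evidence of binding.

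Of 20 factors for the synthesis, 3′ processing and decay of histone mRNA, 19 were tested, 4 were lower and 1 was higher with abemaciclib, and the median log2 fold change was −0.04. The shares were 21.1% lower and 5.26% higher, against 13.3% and 12.5% of all genes tested. SLBP, the stem-loop-binding protein, stood at 33.9, 34.5 and 36.0 CPM with DMSO and at 20.3, 25.2 and 17.8 CPM with abemaciclib (log2 fold change −0.72, standard error 0.20, edgeR adjusted P = 0.0067). NPAT, the coactivator of clustered histone genes that cyclin E and CDK2 phosphorylate, stood at 25.8, 25.6 and 19.7 CPM against 14.2, 17.3 and 12.2 CPM (log2 fold change −0.70, standard error 0.23, edgeR adjusted P = 0.026). For neither gene did the libraries of the groups overlap.

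NELFE, a subunit of the negative elongation factor, had a log2 fold change of −0.58 (edgeR adjusted P = 0.00949), and UPF1, a helicase of mRNA decay, of −0.56 (edgeR adjusted P = 0.0152). TUT7, a uridylyltransferase that tails RNA for decay, rose with a log2 fold change of 0.53 (edgeR adjusted P = 0.0163). CASP8AP2 (FLASH), a scaffold of histone pre-mRNA cleavage, stood at 38.3, 42.8 and 45.7 CPM against 23.3, 34.8 and 42.2 CPM and was not called (edgeR adjusted P = 0.212). The count of lower factors was 2 without DMSO replicate 2, and that of higher factors was 0 without DMSO replicate 1 or abemaciclib replicate 3 and 2 without abemaciclib replicate 2.

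Of 13 cleavage and polyadenylation factors, which end other mRNAs, all were tested, 1 was lower and 1 was higher, and the median log2 fold change was −0.18. The share of 7.69% in each direction was below the 13.3% and 12.5% of all genes tested. NUDT21, which binds upstream of poly(A) sites, had a log2 fold change of −0.50 (edgeR adjusted P = 0.0144), and CPSF1 of 0.45 (edgeR adjusted P = 0.0435). The lower count was 0 without DMSO replicate 1 or DMSO replicate 2. The higher count was 0 with DESeq2, with total counts as the scaling, without a filter on low counts and with the replicate number as a block, as well as on leaving out replicate 1 or 2 of either group.

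Of 25 histone chaperones, which carry histones to and from DNA, 24 were tested, 12 were lower and 3 were higher, and the median log2 fold change was −0.40. The shares were 50% lower and 12.5% higher, against 13.3% and 12.5% of all genes tested. ASF1B, an H3–H4 chaperone of proliferating cells, stood at 82.7, 83.2 and 63.6 CPM with DMSO and at 22.7, 19.98 and 26.8 CPM with abemaciclib (log2 fold change −1.73, standard error 0.17, edgeR adjusted P = 4.22e-09). Both large subunits measured of the chromatin assembly factor CAF-1, which loads H3–H4 at replication forks, fell. CHAF1A had a log2 fold change of −1.06 (edgeR adjusted P = 2.32e-05) and CHAF1B of −1.34 (edgeR adjusted P = 0.0197). RBBP4, the small subunit of CAF-1, was not called (log2 difference 0.03, edgeR adjusted P = 0.896). NASP, which guards the soluble H3–H4 pool, had a log2 fold change of −0.79 (edgeR adjusted P = 0.000436).

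The steepest fall on the chaperone list was that of HJURP, the chaperone of the centromeric histone CENPA, at 40.6, 38.91 and 36.95 CPM against 3.33, 2.47 and 2.97 CPM (log2 fold change −3.73, standard error 0.27, edgeR adjusted P = 7.06e-12). ANP32E, which removes H2A.Z, had a log2 fold change of −1.83 (edgeR adjusted P = 7.35e-08) and MMS22L, which acts at stalled forks, of −1.59 (edgeR adjusted P = 0.0132). HJURP, MMS22L and CHAF1B passed the filter on low counts only on the level of DMSO, where they were high. Their P values, and their part in the share of lower chaperones, come from genes selected in that way. The 3 higher genes were UBN2 and CABIN1, which act with the H3.3 chaperone HIRA, and ATRX, which acts with the H3.3 chaperone DAXX. They had log2 fold changes of 0.40, 0.40 and 0.39 (edgeR adjusted P = 0.0428, 0.0266 and 0.00597). Of their partners, UBN1 (log2 difference 0.07, edgeR adjusted P = 0.657) and DAXX (log2 difference −0.16, edgeR adjusted P = 0.578) were not called, and HIRA was not tested. The higher count was 1 with DESeq2, without DMSO replicate 2 and without abemaciclib replicate 2.

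Replacement histone variants, whose genes stand outside the clusters and give ordinary polyadenylated mRNAs, were also lower, with 9 of 11 tested genes of 12 listed lower and 0 higher (edgeR, 0 higher at an unadjusted P under 0.05), and a median log2 fold change of −1.0005. The share lower was 81.8%, against 13.3% of all genes tested. H2AX, whose mRNA can end in the stem-loop or in a poly(A) tail, stood at 89.0, 107 and 95.1 CPM with DMSO and at 22.7, 21.5 and 16.2 CPM with abemaciclib (log2 fold change −2.27, standard error 0.16, edgeR adjusted P = 5.9e-12). H1-10, a linker histone variant, stood at 501.5, 554 and 629 CPM against 140.1, 111.5 and 85.7 CPM, and the groups were far apart (log2 fold change −2.32, standard error 0.13, edgeR adjusted P = 2.81e-14).

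CENPA, the centromeric H3, stood at 15.95, 13.4 and 15.5 CPM with DMSO and at 0, 0.740 and 0 CPM with abemaciclib (edgeR adjusted P = 3.49e-08). With 0, 3 and 0 counts with abemaciclib, CENPA passed the filter only on the level of DMSO, where it was high. Its P value, and its place among the genes counted as lower, come from a gene selected in that way. H2AZ1, which marks promoters, fell from 697 ± 71.2 to 348.5 ± 48.5 CPM (SD, n = 3; edgeR adjusted P = 1.59e-08). Of the pair of H3.3 genes, H3-3B stood at 859, 757 and 719 CPM against 436, 453 and 458 CPM and fell (log2 fold change −0.79, edgeR adjusted P = 1.28e-07). H3-3A stood at 24.9, 16.04 and 19.99 CPM against 27.8, 27.1 and 26.5 CPM and was not called (log2 difference 0.42, edgeR adjusted P = 0.156). MACROH2A1, at 249 ± 13.4 and 248 ± 15.1 CPM, was not called either (edgeR adjusted P = 0.966).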

How the data were processed

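Counts per gene were analysed for 6 libraries of parental ZR-75-1 cells, grouped by the treatment in their titles (3 DMSO, 3 abemaciclib). The titles do not hold the dose of 500 nM or the time of 4 days. The paper gives 500 nM as its usual abemaciclib dose and 4 days for CUT&RUN of ZR-75-1 cells. For cell line RNA-seq with fulvestrant it gives another time. The authors made 3′ mRNA libraries with a Lexogen QuantSeq kit, trimmed the single-end reads (BBDuk), used STAR 2.7.5b for alignment to hg38 and featureCounts 2.0.1 with GENCODE v35 for counting. The deposited values are raw counts, without normalization or filter. The strand setting and the treatment of reads with several matches are not given in the sources used here, and the sources name the kit differently (forward or "RW"). Short, near-identical histone genes can therefore lose reads or share them.

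Of 60656 identifiers, 60445 matched a symbol, 211 did not, and 40227 genes had 0 counts in all libraries. Features and coordinates came from GENCODE v44 on GRCh38, and promoters from RefSeq. All genes were fitted together by the quasi-likelihood method of edgeR 4.0.16 under R 4.3.3, after filterByExpr and TMM, with Benjamini-Hochberg adjustment across the 10863 genes tested and a threshold of 0.05. Standard errors were derived from the log2 fold change and the F statistic. The common biological coefficient of variation was 13.2%. A member was called uncertain where over 50% of its 50-base words occur in another gene or its exons overlap another gene, which held for 23 of 83 members, 7 of them tested. The scripts were tested on simulated data.

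Named members were those past the threshold or averaging at least 5 CPM, and on the other lists the largest changes (up to 4 in each direction) and 10 fixed genes, of which 1 is not reported here. Where a figure or paragraph names another gene, it was chosen after its values were seen. The members and lists were chosen with earlier results of these data known. Alternatives were the test of DESeq2 1.42.0, edgeR with that tool's size factors, scaling by total counts alone, no filter, at least 10 counts in every library, the replicate number as a block and each library left out. Leaving out members with uncertain counts was added after seeing the data. P values measure the spread between these libraries only.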

Additional observations from a re-analysis of the deposited data

How the results depend on the processing

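With at least 10 counts required in every library, 6 clustered histone genes were lower and 2 were higher, because H1-5, H2AC21, H2BC4, H2BC7 and H3C3 were no longer tested. The higher count was 0 with DESeq2 and 0 without the members of uncertain counts, an alternative that left 8 lower. The median log2 fold change of tested members was −0.18 with DESeq2 and −0.16 with the stricter filter, each over the members tested in that run. For cleavage and polyadenylation factors the higher count was 0 with DESeq2, total counts as scaling, no filter and the replicate block, and for chaperones it was 1 with DESeq2; the cause was not tested. With single libraries left out, the lower count of clustered histone genes was 10 to 11 and the higher count 0 to 2, and the median was −0.83 to −0.34. The same ranges were 2 to 5 lower and 0 to 2 higher for histone mRNA factors, 0 to 1 lower and 0 to 1 higher for cleavage and polyadenylation factors, and 1 to 2 higher for chaperones. The H2B log2 ratio ranged from −0.027 to 0.16, and that of H2BC21 from −0.19 to 0.34, so that both reversed. Without DMSO replicate 1 the H2B ratio was −0.027 and H2BC21 was at −0.19, and without abemaciclib replicate 2 they were −0.022 and −0.11. In all, 179 of 212 alternative values of the comparisons and 238 of 256 of single genes were kept. A count was kept within 1.5 times the main count. A median or a ratio of sums was kept if its sign held and it moved by less than the SD between libraries. A single gene was kept if its direction and its side of the threshold held. The replicate numbers did not pair the libraries (correlation of same-numbered deviations −0.0959 to 0.0074), and with the replicate block 11 clustered histone genes were lower and 1 higher. At 3317860 to 4013156 counts per library, 60 members were not tested in the main run. With no filter on low counts, those with any counts were tested too, and 11 members were lower and 1 higher, with no call gained. Changes of these members may be missed at such counts.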
